A study of Homo sapiens with 9 samples.

Results

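NEFM, NEFL, CKB and LIN28B are 4 of the 17911 genes in a table of RNA sequencing counts, and all 4 were found in it. They were selected on their high levels in libraries labelled capsule, as neuronal and embryonic genes typical of HEK293, an established human embryonic kidney line. Their levels and differences are therefore given as descriptions with no test, and tests are given only for other genes. The labels assign all samples to MDA-MB-231, an established human line from a triple-negative breast cancer, and call the cells WT. The data go against that assignment for 6 of the 9 libraries, as described below. The labels describe 3 capsule samples and 6 liquid overlay spheroid samples, 3 of them small and 3 large. Liquid overlay is a way of growing cells as floating aggregates over a surface to which they cannot attach. Every sample, the capsules included, carries 1 treatment text that names liquid overlay and 5% Matrigel after trastuzumab, an antibody against the receptor ERBB2, with RNA taken at 96 h. Cells were grown in RPMI medium with 10% serum. The labels do not say whether replicates came from separate cultures, so p-values measure only the spread between these libraries, which may be technical.

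Neurofilaments are the intermediate filaments of nerve cells. NEFL, the light chain, and NEFM, the medium chain, assemble together with a heavy chain, NEFH, and with alpha-internexin, INA. CKB is the brain-type creatine kinase of the cytosol, which passes phosphate between creatine and ATP and is abundant in brain. LIN28B is an RNA-binding protein of embryonic and some cancer cells that blocks the maturation of the let-7 family of microRNAs, and let-7 in turn represses LIN28B and other genes of early development.

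The 6 spheroid libraries fell into 2 sets by their column headers, 3 headed L.O. and 3 headed Sph.WT, and neither set could be tied to small or large spheroids. The Sph.WT headers also have another format and do not name MDA. The Sph.WT libraries stood apart from the rest. Over all genes, the log2 CPM (counts per 1e+06 counts of a library) of a capsule and an L.O. library correlated with r between 0.979 and 0.986, against 0.750 to 0.773 where one of the pair was Sph.WT. Library totals ran from 13212665 to 13735221 counts in capsule, 15525725 to 15988167 in L.O. and 16605098 to 33263076 in Sph.WT libraries. Each result is therefore given against L.O. and against Sph.WT, and then against all 6 spheroid libraries.

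The labelled cell line was checked with 18 genes known to be expressed in MDA-MB-231 and 6 known in HEK293. The 18 MDA-MB-231 genes together made up 622 to 636 CPM in capsule and 866 to 993 CPM in L.O. libraries, against 6600 to 6927 CPM in Sph.WT libraries. CD44, a cell surface receptor abundant in MDA-MB-231, had 2.20 ± 0.33 CPM in capsule and 5.72 ± 0.33 CPM in L.O. libraries, against 849 ± 41 CPM in Sph.WT libraries (SD, n = 3 each). All 18 were called lower (edgeR's quasi-likelihood test, adjusted p under 0.05) in capsule and in L.O. than in Sph.WT libraries, where 42.9% and 43.1% of all tested genes were called lower. None of the 18 was at 0 in every library of any set. The capsule and L.O. libraries thus went against their MDA-MB-231 label on these genes. The 6 HEK293 genes summed to 784 to 884 CPM in capsule and 814 to 1043 CPM in L.O. libraries, against 249 to 299 CPM in Sph.WT libraries, where PAX2 and LHX1 had no count. CDKN2A and UCHL1 carried most of it, with 554 and 274 of 884 CPM in capsule library 1. In capsule and in L.O. against Sph.WT libraries 5 of the 6 were called higher, against 43.2% and 42.4% of all tested genes. In capsule against L.O. libraries, 3 of the 6 HEK293 genes and 9 of 14 tested MDA-MB-231 genes were called lower. None of either list was called higher, where 25.4% of all tested genes were lower and 24.7% higher. The other of the 6 HEK293 genes, PEG10, was called lower in capsule and in L.O. than in Sph.WT libraries and made up most of the Sph.WT sum. It had 1.01 ± 0.21 CPM in capsule, 2.65 ± 0.22 CPM in L.O. and 236 ± 24 CPM in Sph.WT libraries (SD, n = 3 each). The part of these markers in the results on the 4 genes was not tested. In bulk RNA, fewer cells of a type and less RNA per cell cannot be told apart.

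**Figure D1:**
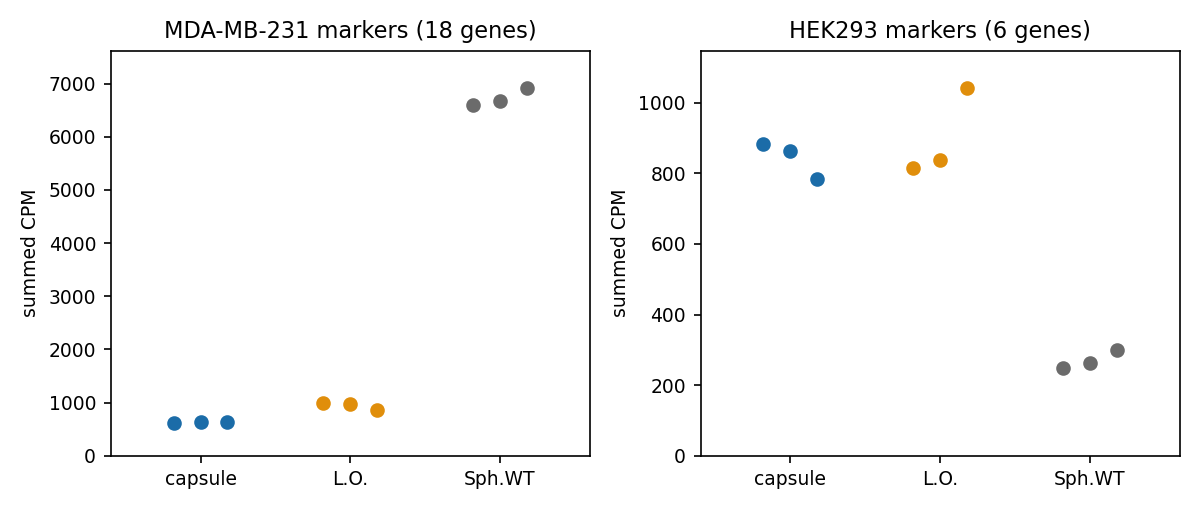
Summed CPM of the MDA-MB-231 markers (left, 18 genes) and the HEK293 markers (right, 6 genes), 1 point per library, with 3 libraries in each of capsule, L.O. and Sph.WT. The highest MDA-MB-231 sum in capsule and L.O. libraries is 993 and the lowest in Sph.WT libraries is 6600, and the HEK293 sums lie in the opposite order.

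The sequences through which LIN28B and its pathway meet are shown first, because the LIN28B results below are read beside those of let-7 and its targets. All 9 mature let-7 and miR-98 sequences of the 5p arm in RefSeq (GRCh38.p14) carry the seed GAGGUAG at bases 2 to 8, shown in capitals for 3 of them.
hsa-let-7a-5p: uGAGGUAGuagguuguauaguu
hsa-let-7d-5p: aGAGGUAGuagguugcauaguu
hsa-miR-98-5p: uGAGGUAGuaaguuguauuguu
The complement of the seed in DNA letters is CTACCTC, and it occurs 4 times in the 3′ UTR of LIN28B (GENCODE release 29), searched on the mRNA strand. Each site is shown in capitals within a window of 30 bases.
LIN28B site 1: ttacccggttgcaaagtCTACCTCatgcaa
LIN28B site 2: tgtactgatgatagtaaCTACCTCtgagtt
LIN28B site 3: ctgtttacagcaaaaggCTACCTCatagtt
LIN28B site 4: gaaaatgatggtgttgaCTACCTCttgaat
The same letters stand in the 3′ UTR of HMGA2, a chromatin protein, and of IGF2BP1, an mRNA-binding protein, of which the first site each is shown.
HMGA2 site 1: gcgccaacgttcgatttCTACCTCagcagc
IGF2BP1 site 1: gctgtgtgcgaagtaaaCTACCTCaaggta
Of 14898 genes of the table with a 3′ UTR, 1702 (11.4%) hold these letters in at least 1 transcript. A match is a description of the letters and not a measured binding site.

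The 4 genes were abundant in the capsule and L.O. libraries and scarce or uncounted in the Sph.WT libraries. NEFM had 433, 419 and 461 CPM in capsule libraries, against 375, 368 and 292 CPM in L.O. libraries and 0, 1 and 0 counts in Sph.WT libraries. Every capsule library lay above every L.O. library, and both sets lay far above Sph.WT. NEFM ranked 283 among the 17911 genes by mean CPM in capsule libraries, 358 in L.O. libraries and 17319 in Sph.WT libraries. NEFL had 141, 137 and 145 CPM in capsule libraries, 135, 140 and 105 CPM in L.O. libraries and no count in any Sph.WT library. A count of 0 allows up to 3 counts, which is 0.151, 0.0902 and 0.181 CPM in the 3 Sph.WT libraries, and these limits cover counting error only. The capsule and L.O. ranges of NEFL overlapped, and L.O. library 3 was the lowest of its set, as for NEFM.

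CKB was the most abundant of the 4. It had 1464, 1490 and 1281 CPM in capsule libraries, 1228, 1380 and 1458 CPM in L.O. libraries and 30.8, 27.6 and 28.4 CPM in Sph.WT libraries. It ranked 50 in capsule, 43 in L.O. and 6950 in Sph.WT libraries. LIN28B had 55.3, 55.1 and 60.1 CPM in capsule libraries, 44.3, 41.0 and 38.9 CPM in L.O. libraries and 0.755, 0.301 and 0.662 CPM in Sph.WT libraries, the last from 15, 10 and 11 counts. Its 3 sets did not overlap. Divided by the length of annotated exons, the order of levels was CKB, NEFM, NEFL and LIN28B in capsule and in L.O. libraries. In capsule libraries these levels were 529, 99.98, 32.5 and 9.47 CPM per kilobase, and in L.O. libraries they were 508, 78.8, 29.3 and 6.90 CPM per kilobase.

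**Figure D2:**
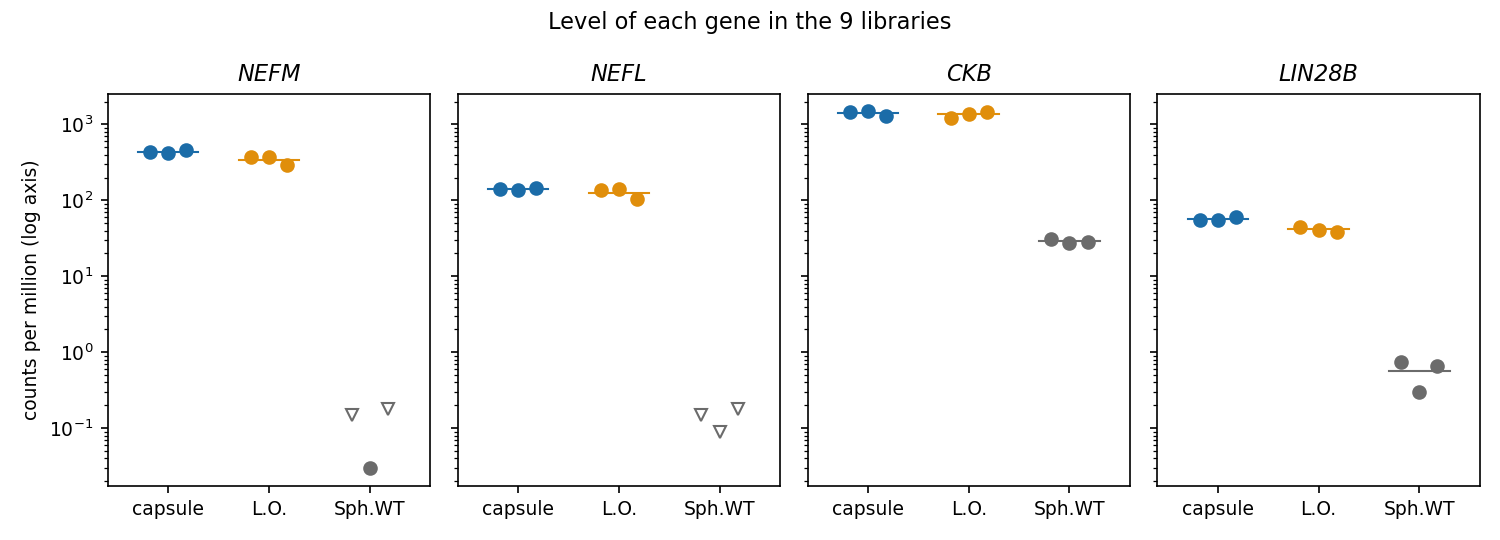
CPM of NEFM, NEFL, CKB and LIN28B on a log axis, with 1 point per library, the mean of 3 libraries as a line, and sets named below. Open triangles mark libraries with no count at the level that 3 counts would give (0.0902 to 0.181 CPM), and all capsule and L.O. points lie above all Sph.WT points.

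In L.O. against Sph.WT libraries, CKB was 34.0-fold higher, a log2 difference of 5.09 (95% interval 4.89 to 5.29). LIN28B was 56.8-fold higher, a log2 difference of 5.83 (5.47 to 6.18). NEFM had 16283 counts in the 3 L.O. libraries against 1 in the 3 Sph.WT libraries, a ratio per total of 24088 with an exact counting interval of 4323 to 951502. NEFL was at least 901-fold higher, taking 3 counts per library as the limit in Sph.WT. The rule by which the 4 genes were chosen names all 9 columns, so these values too are a description with no test. All 3 L.O. libraries lay above all 3 Sph.WT libraries for each gene, as they did for 55.1% of the 16985 genes tested. In edgeR's quasi-likelihood test with Benjamini-Hochberg adjustment, 85.5% of those genes were called at an adjusted p under 0.05, 42.4% higher and 43.1% lower.

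Scaled to library totals instead of TMM (a scaling that assumes most genes do not change), the median of all genes shifted to 0.45 on the log2 scale and 63.9% of calls were higher, against 49.6% with TMM. CKB then differed by 5.55 and LIN28B by 6.29, still well above that median.

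The same genes were also high in capsule relative to Sph.WT libraries, which is what they were selected for. CKB was 40.4-fold higher (interval 35.5 to 46.0) and LIN28B 88.8-fold (69.2 to 114). The log2 difference of LIN28B of 6.47 became 6.03 without Sph.WT library 2, the lowest of its set. NEFM had 17758 counts in capsule libraries against 1, a ratio of 30546 (counting interval 5482 to 1.21e+06), and NEFL was at least 1002-fold higher. In this contrast 86.1% of 16157 genes were called, 43.2% higher and 42.9% lower, and 51% had all capsule above all Sph.WT libraries. These values share the Sph.WT libraries with the contrast before.

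Between capsule and L.O. libraries the 4 genes differed by 1.15-fold to 1.52-fold after TMM. On the log2 scale after TMM, NEFM was 0.49 higher in capsules (95% interval 0.31 to 0.67), LIN28B 0.60 (0.43 to 0.77), NEFL 0.30 (0.11 to 0.49) and CKB 0.21 (0.04 to 0.37). The libraries of the 2 sets did not overlap for NEFM and LIN28B, and overlapped for NEFL and CKB. Of 15919 genes tested, 17.2% had all capsule libraries above all L.O. libraries. As ratios of mean CPM without TMM the differences were smaller, 1.27-fold for NEFM, 1.37-fold for LIN28B, 1.11-fold for NEFL and 1.04-fold for CKB. TMM factors were 1.03 to 1.05 in capsule and 1.14 to 1.16 in L.O. libraries, and without them the median of all genes stood at -0.16. The TMM difference of CKB of 0.21 then became 0.058, and that of NEFL 0.15. In this contrast 50.1% of the genes were called, 24.7% higher and 25.4% lower in capsules. Without TMM, 28.0% of the calls were higher, against 49.4% with it.

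L.O. library 3 had the lowest NEFM, NEFL and LIN28B of its set and the highest CKB. The coefficient of variation of NEFM was 4.91% over capsule and 13.3% over L.O. libraries, and that of NEFL 3.06% over capsule and 15.2% over L.O. libraries. Counting alone would give 1.30% and 1.36% for NEFM and 2.29% and 2.24% for NEFL. The NEFL capsule spread was thus close to counting error, and the others exceeded it. Without any 1 library, the log2 difference between capsule and L.O. ranged from 0.38 to 0.56 for NEFM, 0.18 to 0.37 for NEFL, 0.14 to 0.28 for CKB and 0.56 to 0.66 for LIN28B.

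Against all 6 spheroid libraries as 1 group, the differences averaged over 2 unlike sets. The log2 differences were 1.49 for NEFM, 1.30 for NEFL, 1.17 for CKB and 1.58 for LIN28B, and every 95% interval included 0 (for NEFM -3.35 to 6.34). Of 16985 genes, 3.76% were called, 2.3% higher and 1.47% lower in capsules. That count of 639 genes fell to 0 in edgeR's test when capsule library 1, 2 or 3 was left out, with 2448, 2620 and 2507 genes at an unadjusted p under 0.05. It was 287 without L.O. library 2 and 409 without L.O. library 3, and 154, 240 and 207 without Sph.WT library 1, 2 and 3. DESeq2 called 4025 with all libraries. The share of higher calls was 61.0% with edgeR and TMM, 27.6% with library totals and 30.2% with DESeq2.

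The ratio of NEFM to NEFL was similar among libraries of 1 set and higher in capsules. Per kilobase of exon, NEFM stood at 3.07 ± 0.06 times NEFL in capsule libraries and 2.70 ± 0.09 times in L.O. libraries (SD, n = 3 each). Capsule values ran from 3.03 to 3.14 and L.O. values from 2.59 to 2.76, without overlap. The 2 genes are neighbours in the genome, 31861 bases apart in RefSeq's GRCh38.p14. Within 250 kb of NEFL, DOCK5, a guanine exchange factor for Rac, was the only other measured gene. It had 16.8 ± 1.8 CPM in capsule and 17.9 ± 2.2 CPM in L.O. libraries, against 122 ± 8.7 CPM in Sph.WT libraries (SD, n = 3 each), so it ran opposite to NEFL. It was called lower in L.O. than in Sph.WT libraries (adjusted p = 9.58e-19), as were 43.1% of all tested genes.

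The neurofilament partners INA and NEFH ran in opposite directions. Of 7 intermediate filament genes other than NEFM and NEFL, 4 were called higher and 3 lower in L.O. than in Sph.WT libraries. With 42.4% of all tested genes higher and 43.1% lower, this count is no result about the list. With library totals 4 of the 7 were higher and 2 lower, where 9349 of all 16985 tested genes were higher and 5287 lower. INA, alpha-internexin, had 106 ± 8.7 CPM in L.O. against 0.157 ± 0.097 CPM in Sph.WT libraries (log2 8.75 ± 0.18 SE, adjusted p = 5.68e-22). PRPH, peripherin, the filament of peripheral neurons, had 13.7 ± 1.9 CPM in L.O. against 0.167 ± 0.042 CPM in Sph.WT libraries (log2 5.92 ± 0.29 SE, adjusted p = 4.77e-15). NES, nestin of neural progenitors, was higher in L.O. with 63.0 ± 4.3 CPM against 24.8 ± 1.4 CPM, and DES, desmin of muscle, with 3.13 ± 0.66 CPM against 1.39 ± 0.66 CPM (SD, n = 3 each). NEFH, the heavy chain, was lower, with 2.44 ± 0.45 CPM in L.O. against 4.21 ± 1.26 CPM in Sph.WT libraries (log2 -1.21 ± 0.24 SE, adjusted p = 5.55e-05). SYNM, synemin, was also lower, with 27.2 ± 1.5 CPM in L.O. against 90.6 ± 0.98 CPM in Sph.WT libraries. GFAP, the filament of astrocytes, was called lower (log2 -0.50) but not with library totals, and its sets overlapped.

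In capsules against L.O., 6 of these 7 were called lower and none higher, against 25.4% and 24.7% of all tested genes. NES had 24.8 ± 0.21 CPM in capsule against 63.0 ± 4.3 CPM in L.O. libraries (log2 -1.20 ± 0.08 SE, adjusted p = 3.4e-09). PRPH had 6.41 ± 1.7 CPM in capsule against 13.7 ± 1.9 CPM in L.O. libraries (log2 -0.96 ± 0.16 SE). INA, at 89.2 ± 5.1 CPM in capsule against 106 ± 8.7 CPM in L.O. libraries, was not called with TMM (adjusted p = 0.285) but was with library totals. The median log2 of the list was -0.86, against -0.01 for all genes. The capsule and L.O. libraries of all 7 did not overlap, as for 57.8% of all tested genes. Against Sph.WT, 2 of the 7 were called higher and 4 lower in capsules, where 43.2% of all tested genes were higher and 42.9% lower. NES was called lower there at 24.8 CPM in each set (log2 -0.28), a call that was lost and turned direction with library totals.

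**Figure D3:**
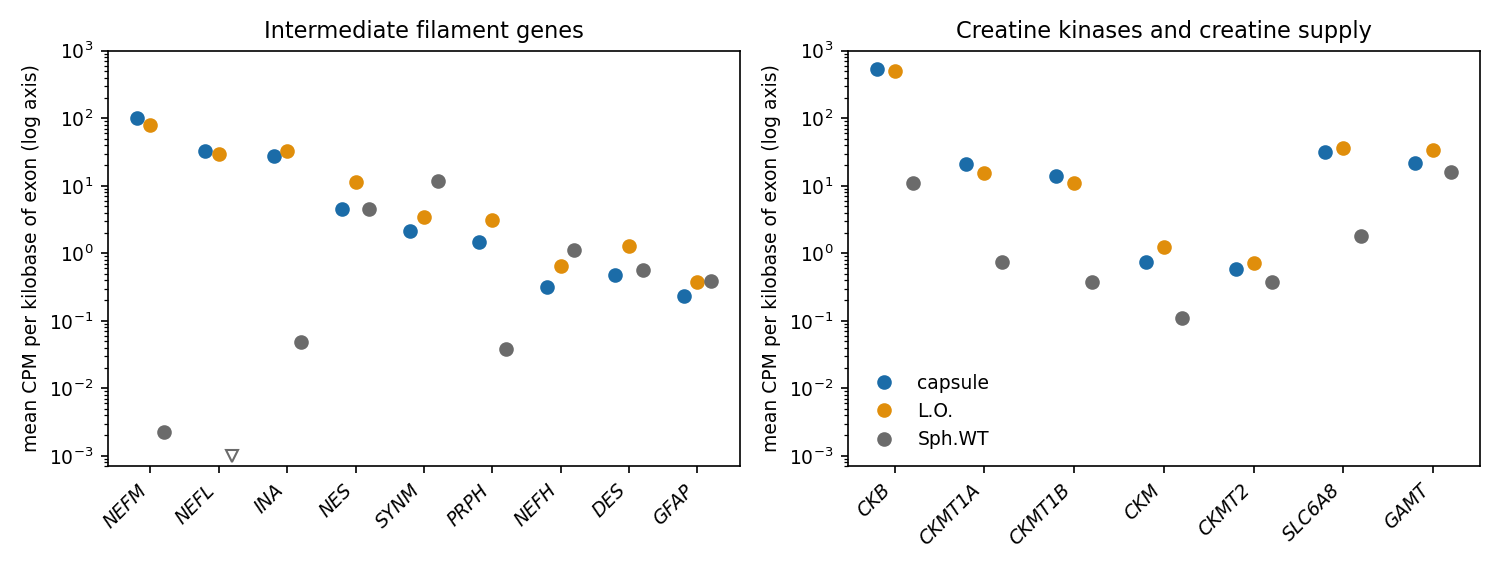
Mean CPM per kilobase of annotated exon on a log axis, 1 point per set of 3 libraries, for the intermediate filament genes (left) and for the creatine kinases and creatine supply genes (right). NEFM, NEFL and INA lead the left panel in capsule and L.O. libraries and, with PRPH, are the lowest in Sph.WT libraries, where NEFL (open triangle, drawn at the axis floor) had no count. CKB leads the right panel except in Sph.WT libraries, where GAMT is above it.

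CKB lies on chromosome 14 at chr14:103519667-103522830 (GRCh38.p14). Its RefSeq promoter window at chr14:103522781-103523080 on the minus strand, 250 bases before to 50 after the start, is shown because CKB was the most abundant of the 4 and its promoter holds the 2 motifs searched. The motifs, in capitals, are TATAAA once and CCAAT in 2 places, searched on both strands.
CKB promoter: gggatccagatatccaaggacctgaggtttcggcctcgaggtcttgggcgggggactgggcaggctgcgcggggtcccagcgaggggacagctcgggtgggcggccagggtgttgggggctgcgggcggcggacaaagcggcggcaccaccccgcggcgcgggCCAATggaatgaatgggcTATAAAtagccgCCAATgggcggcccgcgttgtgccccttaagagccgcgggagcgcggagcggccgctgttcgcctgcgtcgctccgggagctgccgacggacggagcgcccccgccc
Of 27305 promoter windows in RefSeq, 12.0% hold TATAAA and 35.7% hold CCAAT. Of 9 other measured genes within 250 kb of CKB, 3 were called higher and 4 lower in L.O. than in Sph.WT libraries. With 42.4% of all tested genes higher and 43.1% lower, this count is no result about the neighbourhood. XRCC3, a DNA repair gene, differed most, with 107 ± 9.0 CPM in L.O. against 34.4 ± 3.0 CPM in Sph.WT libraries (SD, n = 3 each).

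CKB supplied most creatine kinase counts in every set. Its share was 92.4 ± 0.48% in capsule libraries, 93.7 ± 1.2% in L.O. libraries and 85.8 ± 2.9% in Sph.WT libraries (SD, n = 3 each). Of 6 measured genes of the creatine system, 5 were called higher and none lower in L.O. than in Sph.WT libraries. Among all tested genes 42.4% were higher and 43.1% lower. The median log2 of the 6 was 3.44, against -0.01 for all genes. SLC6A8, the transporter that brings creatine into the cell, had 198 ± 7.8 CPM in L.O. against 10.0 ± 0.70 CPM in Sph.WT libraries (log2 3.85 ± 0.09 SE, adjusted p = 2.39e-21). The mitochondrial kinase genes CKMT1A and CKMT1B had 48.7 ± 6.2 and 38.1 ± 5.8 CPM in L.O. against 2.32 ± 1.2 and 1.28 ± 0.37 CPM in Sph.WT libraries. They are near-identical copies, so the split of reads between them is uncertain. CKM, the muscle kinase, had 2.02 ± 0.49 CPM in L.O. against 0.184 ± 0.066 CPM in Sph.WT libraries (adjusted p = 6.28e-07). GAMT, which makes creatine, was called higher at 81.8 ± 9.9 CPM in L.O. against 38.0 ± 8.9 CPM in Sph.WT libraries. CKMT2, a mitochondrial kinase of muscle, was at 1.95 ± 0.10 CPM in L.O. against 1.03 ± 0.02 CPM in Sph.WT libraries and was not called (adjusted p = 0.103) with TMM, though it was with library totals.

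Between capsules and L.O., 2 of these 6 were called higher and 1 lower, against 24.7% and 25.4% of all tested genes. With library totals SLC6A8 was also called lower, as were 5852 of all 15919 tested genes. CKMT1A had 64.7 ± 2.7 CPM in capsule against 48.7 ± 6.2 CPM in L.O. libraries, and CKMT1B 48.2 ± 2.1 CPM against 38.1 ± 5.8 CPM. GAMT was lower in capsules, with 52.0 ± 4.2 CPM against 81.8 ± 9.9 CPM in L.O. libraries (log2 -0.50 ± 0.09 SE). Against Sph.WT, 4 of 6 were called higher in capsules and none lower, where 43.2% of all tested genes were higher and 42.9% lower. With library totals all 6 were higher, where 8202 of all 16157 tested genes were called higher and 5721 lower.

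LIN28B lies on chromosome 6 at chr6:104937026-105083332 (GRCh38.p14). Of 5 other measured genes within 250 kb, BVES, a membrane protein of muscle and epithelium, differed most, with 10.4 ± 0.57 CPM in L.O. against 0.0669 ± 0.021 CPM in Sph.WT libraries (adjusted p = 4.71e-16). BVES-AS1, its antisense partner, had 0.638 ± 0.234 CPM in L.O. and 0.121 ± 0.030 CPM in Sph.WT libraries, and was called higher. As strand handling is not stated, reads of BVES and BVES-AS1 cannot be told apart. HACE1, POPDC3 and PREP were called lower in L.O. than in Sph.WT libraries, though for HACE1 the ratio of mean CPM without TMM was 1.09. Of the 5 neighbours, 2 were thus called higher and 3 lower. With 42.4% of all tested genes higher and 43.1% lower, this count is no result about the neighbourhood.

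Of 7 measured genes that act with LIN28B or on let-7 precursors, 2 were called higher and 4 lower in L.O. than in Sph.WT libraries with TMM. Among all tested genes 42.4% were higher and 43.1% lower. With library totals 3 of the 7 were higher and 2 lower, where 9349 of all 16985 tested genes were higher and 5287 lower. DROSHA, the nuclear nuclease, was called higher with library totals and with DESeq2's size factors but not with TMM, at 131 ± 7.5 CPM in L.O. against 85.7 ± 5.6 CPM in Sph.WT libraries (adjusted p = 0.094). TRIM71, itself a let-7 target of embryonic cells, had 481 counts in L.O. against 1 in Sph.WT libraries, a ratio per total of 712 (counting interval 127 to 28163, adjusted p = 2.09e-15). DGCR8, the partner of DROSHA, was higher, at 125 ± 3.5 CPM in L.O. against 55.6 ± 1.2 CPM in Sph.WT libraries (log2 0.71 ± 0.07 SE). The terminal uridylyl transferases TUT4 and TUT7, the exonuclease DIS3L2 and DICER1, which cuts the precursor, were called lower, with log2 differences of -0.37, -0.84, -0.63 and -0.68. The call of TUT4 turned direction and that of DIS3L2 was lost with library totals. In capsules against L.O., 3 of the 7 were called higher and 1 lower with TMM, against 24.7% and 25.4% of all tested genes. With library totals none was higher and 1 lower, where 2275 of all 15919 tested genes were higher and 5852 lower. The lower one was TRIM71, with 6.99 ± 0.98 CPM in capsule against 10.2 ± 0.71 CPM in L.O. libraries (log2 -0.40 ± 0.14 SE).

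Among 16 measured let-7 targets and oncofetal genes, 11 were called higher and 4 lower in L.O. than in Sph.WT libraries. The shares of all tested genes were 42.4% higher and 43.1% lower. The median log2 of the 16 was 2.07 against -0.01 for all genes. With library totals 12 of the 16 were higher and 2 lower, where 9349 of all 16985 tested genes were higher and 5287 lower. IGF2BP2 and E2F5 turned direction in that scaling. IGF2BP1, whose let-7 site is shown above, had 286 ± 26 CPM in L.O. against 2.14 ± 0.82 CPM in Sph.WT libraries (log2 6.70 ± 0.15 SE, adjusted p = 1.82e-21). IGF2, a fetal growth factor, and MYCN, an embryonic transcription factor, had no count in Sph.WT and were at least 141-fold and 25.8-fold higher in L.O. libraries. CCND2, a cell cycle cyclin, had 73.6 ± 6.5 CPM in L.O. against 1.18 ± 0.40 CPM in Sph.WT libraries, and ARID3B 110 ± 3.9 CPM against 3.74 ± 0.50 CPM. CDC25A and CDC34, which drive the cell cycle, had 163 ± 4.3 and 125 ± 12 CPM in L.O. against 19.1 ± 1.2 and 43.4 ± 6.5 CPM in Sph.WT libraries. HMGA1 and HMGA2 were lower in L.O., with 420 ± 41 and 45.9 ± 2.7 CPM against 515 ± 40 and 54.3 ± 4.9 CPM in Sph.WT libraries. Of the 16 genes 13 hold the let-7 letters in a 3′ UTR. Genes with sites were called in both directions with TMM. Among those called higher, NR6A1 holds 5, IGF2BP1 4, and ARID3A and CDC25A 2 each. ARID3B, CDC34, PLAGL2 and SALL4, also higher, hold 1 each, and IGF2, MYCN and CCND2 hold 0. Among those called lower, HMGA2 holds 4, and HMGA1, IGF2BP2 and E2F5 hold 1 each. IGF2BP3, which was not called, holds 1. A link between sites and direction was not tested.

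Between capsules and L.O., 4 of the 16 were called higher and 5 lower with TMM, against 24.7% and 25.4% of all tested genes. With library totals 3 were higher and 6 lower, where 2275 of all 15919 tested genes were higher and 5852 lower. IGF2 had 4.70 ± 0.66 CPM in capsule against 19.9 ± 1.8 CPM in L.O. libraries (log2 -1.93 ± 0.14 SE, adjusted p = 3.54e-09). MYCN was lower at 1.26 ± 0.14 CPM in capsule against 3.63 ± 0.66 CPM in L.O. libraries. CDC25A was higher at 203 ± 6.6 CPM in capsule against 163 ± 4.3 CPM in L.O. libraries, and CCND2 at 91.0 ± 8.3 CPM against 73.6 ± 6.5 CPM. IGF2BP1 was not called, with 269 ± 22 CPM in capsule and 286 ± 26 CPM in L.O. libraries (adjusted p = 0.56). In capsules against Sph.WT, 11 of 16 were called higher and 3 lower with TMM, against 43.2% and 42.9% of all tested genes. With library totals 13 were higher and 1 lower, where 8202 of all 16157 tested genes were called higher and 5721 lower.

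Counts named for let-7 itself came from 2 genes, chosen after their values were seen. MIRLET7BHG, the host transcript of let-7a-3 and let-7b, had 2.04, 1.82 and 1.32 CPM in capsule libraries, 0.832, 0.813 and 0.773 CPM in L.O. libraries and 5.74, 4.75 and 5.96 CPM in Sph.WT libraries. It was called lower in L.O. than in Sph.WT libraries (log2 -3.20 ± 0.23 SE, adjusted p = 7.21e-12) and higher in capsules than in L.O. libraries (log2 1.24 ± 0.31 SE, adjusted p = 0.00266). MIRLET7D had 5, 11 and 47 counts in the capsule, L.O. and Sph.WT sets and was too low to test. Mature microRNAs were not measured.

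**Figure D4:**
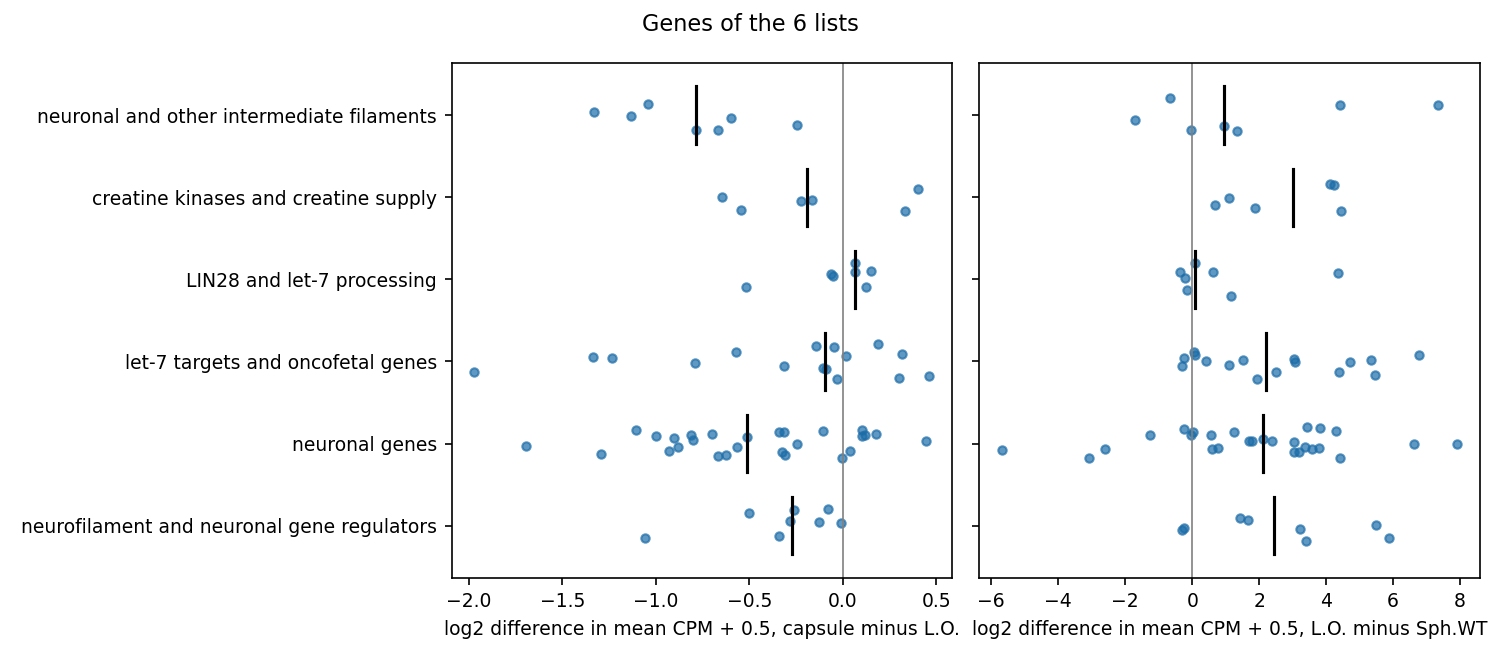
Differences in log2 of mean CPM plus 0.5 for genes of the 6 lists around the 4 genes, as capsule minus L.O. (left) and L.O. minus Sph.WT (right), without TMM. Each point is 1 gene, the black bar is the median of the list, and the vertical grey line marks no difference. The 2 panels have different axes, -2 to 0.5 on the left and -6 to 8 on the right.

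Neuronal genes as a group showed both directions. Of 25 tested in L.O. against Sph.WT libraries, 17 were called higher and 7 lower (18 and 5 with library totals). With TMM, 42.4% of all tested genes were higher and 43.1% lower. With library totals, 9349 of all 16985 tested genes were higher and 5287 lower. The median log2 of the list was 3.31, against -0.01 for all genes. DPYSL5, a protein of growing axons, had 120 ± 7.6 CPM in L.O. libraries and no count in Sph.WT, at least 850-fold higher. NCAM1, a neural cell adhesion molecule, had 54.6 ± 8.8 CPM in L.O. against 0.0569 ± 0.06 CPM in Sph.WT libraries (log2 8.99 ± 0.25 SE). ELAVL2, a neuronal RNA-binding protein, and GAP43, a growth cone protein, had 1 count each in Sph.WT, with ratios of 664 (counting interval 119 to 26294) and 259 (45.9 to 10283). TUBB2B, a tubulin of developing neurons, had 281 ± 15 CPM in L.O. against 26.9 ± 2.8 CPM in Sph.WT libraries. L1CAM, another adhesion molecule of neurons, ran the other way with 40.0 ± 1.7 CPM in L.O. against 344 ± 8.2 CPM in Sph.WT libraries. So did SCG2, a protein of secretory granules, chosen after its value was seen, with 0.361 ± 0.20 CPM in L.O. against 43.5 ± 3.1 CPM in Sph.WT libraries. STMN1, a microtubule regulator, and ENO2, the neuronal enolase, were called lower with TMM. With library totals the call of STMN1 was lost and ENO2 turned direction.

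In capsules against L.O., 14 of 23 tested neuronal genes were called lower and 3 higher, against 25.4% and 24.7% of all tested genes. With library totals 16 were lower and none higher, a scaling in which only 28.0% of all calls were higher. ENO2 had 75.4 ± 0.87 CPM in capsule against 151 ± 8.3 CPM in L.O. libraries (log2 -0.86 ± 0.07 SE, adjusted p = 2.74e-08). L1CAM had 12.0 ± 1.6 CPM in capsule against 40.0 ± 1.7 CPM in L.O. libraries (log2 -1.59 ± 0.11 SE, adjusted p = 1.65e-09). TUBB2B and DPYSL5 were lower by less, with log2 differences of -0.19 and -0.18, and the call of DPYSL5 was lost with DESeq2's size factors. The median log2 was -0.49. NEFM and NEFL had positive differences in the same contrast, but they were selected on their high capsule levels. Their sign can therefore not be set against that of the list. Against Sph.WT, 16 of 24 were called higher and 7 lower in capsules, where 43.2% of all tested genes were higher and 42.9% lower. Against all 6 spheroid libraries, TUBB3, a neuronal tubulin, and ENO2 were the only genes of the 6 lists called, both lower in capsules (adjusted p = 0.0249 and 0.0191). Neither was called without capsule library 1, 2 or 3, and TUBB3 was not called without Sph.WT library 2 or 3 either.

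Of 8 measured regulators of neuronal genes, 6 were called higher and 2 lower in L.O. than in Sph.WT libraries, where 42.4% of all tested genes were higher and 43.1% lower. SOX2, a factor of neural and embryonic stem cells, had 29.1 ± 5.5 CPM in L.O. and no count in Sph.WT libraries, at least 207-fold higher. POU3F2, a factor of developing neurons, had 28.0 ± 2.3 CPM in L.O. against 0.141 ± 0.11 CPM in Sph.WT libraries (log2 7.38 ± 0.24 SE, adjusted p = 1.70e-18). NEUROG2, NEUROD1 and MYT1, factors of nerve cell differentiation, stood at 5.25 ± 0.87, 0.850 ± 0.20 and 4.24 ± 0.56 CPM in L.O. and averaged below 0.1 CPM in Sph.WT libraries. ISL1, a factor of motor neurons, was at 7.56 ± 0.55 CPM in L.O. against 2.02 ± 0.67 CPM in Sph.WT libraries. REST, which silences neuronal genes outside the nervous system, and its partner RCOR1 were lower, with 39.0 ± 1.2 and 54.0 ± 1.8 CPM in L.O. against 46.3 ± 2.0 and 67.5 ± 3.0 CPM in Sph.WT libraries. In capsules against L.O., 1 of 7 tested was called, SOX2, at 13.7 ± 0.61 CPM in capsule against 29.1 ± 5.5 CPM in L.O. libraries (log2 -0.94 ± 0.12 SE). With library totals RCOR1 and NEUROG2 were also called lower, which made 3, where 5852 of all 15919 tested genes were lower. Of all genes tested in that contrast with TMM, 50.1% were called. In capsules against Sph.WT, 5 of 7 were higher and 2 lower, against 43.2% and 42.9% of all tested genes.

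Genes whose pattern over the 9 libraries was most like that of each gene were ranked by the root mean square difference of centred log2(CPM + 0.5). This measure mostly reads the gap to the Sph.WT libraries, which all such genes share. The added 0.5 shrinks that gap for genes with Sph.WT levels near or below 0.5 CPM, such as NEFM, NEFL and LIN28B. The distances of these genes and their order therefore depend in part on the added value, and no other value was tested. The nearest to CKB was PCSK6, a protease, at 0.08, followed by NETO2 at 0.11. The nearest to LIN28B was MTAP, an enzyme of methionine salvage, at 0.09, with 78.3 CPM in capsule, 60.0 CPM in L.O. and 1.07 CPM in Sph.WT libraries, followed by PHGDH at 0.16. The nearest to NEFL were AMOT at 0.08 and TENM1 at 0.09, with DPYSL5 of the neuronal list among the first 5. AMOT had 0.666 CPM in Sph.WT libraries, where NEFL had no count, so their closeness rests on the added 0.5. For NEFM it was IRS4, an adapter of insulin signalling, at 0.43, followed by CDKN2A at 0.49, with NEFL also among the first 5 at 0.72. Among the 4 genes themselves, CKB and LIN28B were the closest pair by this measure at 0.25 and NEFM and LIN28B the farthest at 1.91. Without the added 0.5, the log2 ratio of mean CPM of capsule to Sph.WT libraries was 5.61 for CKB and 6.63 for LIN28B. The closeness of CKB and LIN28B thus also rests in part on the added value.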

How the data were processed

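The deposited table holds whole-number counts of reads per Entrez gene, not normalized by the authors, in 9 columns. Per the submitters' processing notes, tools included featureCounts and limma and the build was hg38; the aligner, annotation and strand setting are not given in the sources used here. Capsule columns were tied to samples by name, and the other 6 to the spheroid group only. The 237 rows without a symbol kept their Entrez IDs in fits. Differences were fitted with edgeR 4.0.16 (quasi-likelihood, TMM, default filter on low counts) in R 4.3.3, called at an adjusted p under 0.05, and the fit was tested on simulated data. The test between header sets shares its spread with the capsule libraries. Alternatives were DESeq2 1.42.0, DESeq2's size factors, library totals, no filter, each header set alone or as its own level, and leaving out each library. CPM is counts per 1e+06 of a library's total, and levels are means ± SD. Limits at 0 counts use 3 counts; intervals are 95%. No replicate pair agreed within counting noise. Genes beyond it ranged from 1203 of 14508 (capsule libraries 1 and 2) to 5055 of 14581 (Sph.WT libraries 1 and 2). Exon lengths and 3′ UTRs came from GENCODE 29, using for each gene the transcript with most sites, coordinates and promoters from RefSeq GRCh38.p14, by Python 3.11.15.

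The 4 genes and all lists were chosen with earlier results of these data known. A planned test of the 4 genes between header sets is not reported, as the rule that chose them names all 9 columns. Lists of up to 8 measured genes were described whole; of longer lists the 4 most abundant and the 4 with largest differences were named, with exceptions stated where they occur. HMGA2, IGF2BP2, E2F5 and TUBB3 were added after their values were seen, as they bear on a site, a turned direction or a small count. Similar genes needed a mean of 5 CPM, and 1 sex-linked gene was left out of their ranking.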

Additional observations from a re-analysis of the deposited data

Results flagged for a closer look

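STMN4, a neuronal relative of the microtubule regulator STMN1, was flagged because its highest spheroid library stood far from the other 5. It had 0.751 CPM in that L.O. library, and no count in any Sph.WT library. Of 99 genes examined in this way 1 was flagged, and STMN4 was too low to be tested. A chance rate of about 1 in 20 assumes libraries of 1 group, and here the unlike L.O. and Sph.WT sets were pooled. The count of flags therefore cannot be read against that rate, and no conclusion on the libraries is drawn from it.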

How the results depend on the processing

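No paired analysis was possible because the 6 spheroid columns cannot be tied to single samples or to the numbers of the labels, so the planned replicate block was not run. For capsule against all 6 spheroid libraries, the 639 called genes became 359 with library totals, 4025 with DESeq2, 12643 with the header sets as levels, 7970 against L.O. alone and 13909 against Sph.WT alone, and 0 to 604 without 1 library. The 2 called genes of the 6 lists became 9, 56, 40 and 61 with DESeq2, the sets as levels, L.O. alone and Sph.WT alone, and 0 to 2 without 1 library. Over all tested genes the share called was 3.76% in the main fit, 50.1% against L.O. alone and 86.1% against Sph.WT alone. DESeq2 and the sets as levels called 4025 and 12643 of 16985 genes. The rise is therefore no result about the lists. The log2 difference of CKB was 5.34 and of LIN28B 6.47 against Sph.WT alone. With library totals, CKB differed by 0.0583 and LIN28B by 0.46 between capsule and L.O., and CKB by 5.61 between capsule and Sph.WT. LIN28B ranged from 6.03 to 6.74 between capsule and Sph.WT without 1 library. The cause of these shifts was not tested. No result on the 4 genes turned direction in the alternatives run. Depth limits NEFM, NEFL and LIN28B in Sph.WT libraries, where they rest on 1, 0 and 36 counts.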
